A study of Mus musculus with 10 samples.

Results

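The 33 genes described here encode the chaperones of the endoplasmic reticulum (ER), the machinery that removes misfolded proteins from it, and the signalling proteins of the unfolded protein response. They were chosen by name and divided by role into 17 folding and import genes, 6 genes of ER-associated degradation (ERAD), 3 sensors and sensor targets (Atf6, Ern1 and Xbp1) and 7 genes of the PERK-ATF4 branch. They are 33 of the 16590 genes named on an Illumina mouse bead array, which was hybridised with amplified, biotin-labelled RNA from whole ileum, the last stretch of the small intestine. The array has probes for 30 of them, and 23 had a probe with a detection p-value under 0.05 on at least 5 arrays and are called measured below.

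The samples were 5 ilea of interferon-gamma knockout mice, labelled IFNgKO, and 5 ilea of wild-type mice, labelled WT. All were C57Bl/6 males aged 8 weeks, fed a standard chow in a specific-pathogen-free facility and given no treatment. Each array holds 1 sample, and the labels name an array set 1 with 2 samples of each genotype and an array set 2 with 3 of each, called set 1 and set 2 below. The labels give neither the knockout allele nor the kinship of the mice, nor do they state that each sample is a separate animal, so p-values here speak for the spread among samples, which may be technical in part. The ileum stands as whole tissue, in which fewer cells of a type and less RNA per cell cannot be told apart. Fabp6, the bile acid binding protein of ileal enterocytes, was detected on every array, with a log2 level of 14.87 ± 0.07 in IFNgKO ilea and 15.01 ± 0.17 in WT ilea (SD, n = 5 each). The 2 probes of Ifng were detected on none of the 10 arrays, so the genotype labels could not be checked. Between 10618 and 12975 probes were detected per array. Ileum_WT_641 had the fewest, the lowest mean correlation with the other arrays (0.949) and an array weight of 0.28.

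Proteins made for secretion or for membranes enter the ER through the Sec61 channel, and there chaperones and disulfide isomerases fold them. When unfolded proteins accumulate, 3 membrane sensors respond. ATF6 is cut into a transcription factor, IRE1 (encoded by Ern1) splices the messenger RNA of Xbp1 into the form that encodes an active factor, and PERK slows translation while allowing ATF4 to be made. ATF6 and spliced XBP1 raise chaperone and ERAD genes, whereas ATF4 raises genes of amino acid supply and, through CHOP (encoded by Ddit3), of cell death. In the gut the response is best known in the heavily secreting goblet and Paneth cells, and interferon-gamma raises the class I antigen presentation that uses the ER chaperones calreticulin and ERp57.

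The regulatory letters by which the response reads these genes are visible in their promoters. The 250 bases before each gene's start, from the RefSeq annotation of GRCm38.p6, were available for 29 of the 33 genes. They were searched on both strands for the ER stress response element (CCAAT, any 9 bases, CCACG), the related element ERSE-II (ATTGG, any 1 base, CCACG), the core TGACGTGG that XBP1 is known to bind, and the core TGATGNAA bound by ATF4 with its partners. The matches to the ER stress response element are given first, since this is the element that ATF6 is known to bind, with the fixed letters in capitals and each read 5′ to 3′ on the strand that holds it.
Hspa5: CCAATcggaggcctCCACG
Hsp90b1, farther from the start: CCAATcgcaaggagCCACG
Hsp90b1, nearer to the start: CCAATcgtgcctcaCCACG
Calr: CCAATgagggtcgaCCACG
Dnajc3: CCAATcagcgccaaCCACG
Creld2: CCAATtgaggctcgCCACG
Canx: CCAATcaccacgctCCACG
Pdia6: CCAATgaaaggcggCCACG
Syvn1: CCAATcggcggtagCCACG

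The element was present in 8 of the 29 genes, against 0.113% of all 32851 promoter windows of this length and 0.13% of the 27025 genes with a window. Of these 8 genes 7 belong to the 15 folding genes with a window, 1 (Syvn1) to the 5 ERAD genes, and none to the 7 PERK-ATF4 genes. Its distance from the start varied, from bases 44 to 26 before it in Syvn1 to bases 212 to 194 for the farther element of Hsp90b1. Herpud1 was the single member with ERSE-II (ATTGGgCCACG), which 0.0304% of windows hold. The ATF4 core was present in Asns (TGATGaAA), Atf3 (TGATGcAA), Chac1 (TGATGcAA) and Herpud1 (TGATGcAA), 4 of 29 genes, against 3.45% of all windows. The core TGACGTGG was in none of the 29 windows and in 0.563% of all windows. None of these matches overlapped one of another motif. Since the genes were chosen by name as genes of this response, these shares describe the list and are no test of it. A match is a description of the letters and not a site shown to be used.

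The windows of 3 genes are given whole, 1 folding gene with a higher mean in IFNgKO ilea and 2 ERAD genes with lower means. None of these differences passed an adjusted p of 5%, and that of Calr was 1.14 log2 units in set 1 but 0.11 in set 2. The windows show the related elements and do not bear on direction. Capitals mark the fixed letters of the ER stress response element or of ERSE-II, which read as their reverse complement in Calr.
Calr, chr8:84846932-84847181, minus strand: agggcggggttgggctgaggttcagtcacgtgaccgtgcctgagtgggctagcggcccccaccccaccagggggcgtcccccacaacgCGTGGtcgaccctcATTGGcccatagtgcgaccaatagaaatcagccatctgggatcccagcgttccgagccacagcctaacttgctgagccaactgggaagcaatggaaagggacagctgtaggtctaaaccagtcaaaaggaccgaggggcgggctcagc
Syvn1, chr19:6046326-6046575, plus strand: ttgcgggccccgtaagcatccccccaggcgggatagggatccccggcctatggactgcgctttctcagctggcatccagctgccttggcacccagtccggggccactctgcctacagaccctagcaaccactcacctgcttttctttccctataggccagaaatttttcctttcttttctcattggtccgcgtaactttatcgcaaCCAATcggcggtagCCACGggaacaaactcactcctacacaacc
Herpud1, chr8:94386179-94386428, plus strand: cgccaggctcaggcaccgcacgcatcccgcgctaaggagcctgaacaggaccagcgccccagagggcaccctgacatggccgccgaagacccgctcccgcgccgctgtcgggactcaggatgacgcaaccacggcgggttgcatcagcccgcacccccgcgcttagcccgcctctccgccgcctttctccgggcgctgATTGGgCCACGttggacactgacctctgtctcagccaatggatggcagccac

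The first question was whether the ER genes differ between IFNgKO and WT ileum. None of the 23 measured genes passed an adjusted p of 5%, against 0.0166% of the 12039 probes tested (limma, Benjamini-Hochberg over all tested probes, array set fitted). Their 95% intervals place the differences within about 1 log2 unit of no difference, and the interval of Atf3 alone reached past it, to 1.19. At an unadjusted p under 0.05, 3 genes were higher in IFNgKO ilea (Calr, Pdia3 and Atf3) and 3 were lower (Dnajb9, Syvn1 and Ddit3). Together these were 26.1% of the members, against 12.2% of all tested probes, of which 5.86% were higher and 6.38% lower. In no member did the IFNgKO and WT samples lie wholly apart, against 1.34% of all probes (0.706% with IFNgKO above and 0.631% below). The 23 genes lay on both sides, 14 higher and 9 lower, with a median difference of 0.06 log2 units, beside 0.0044 over all tested probes, of which 51.0% were higher.

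**Figure D1:**
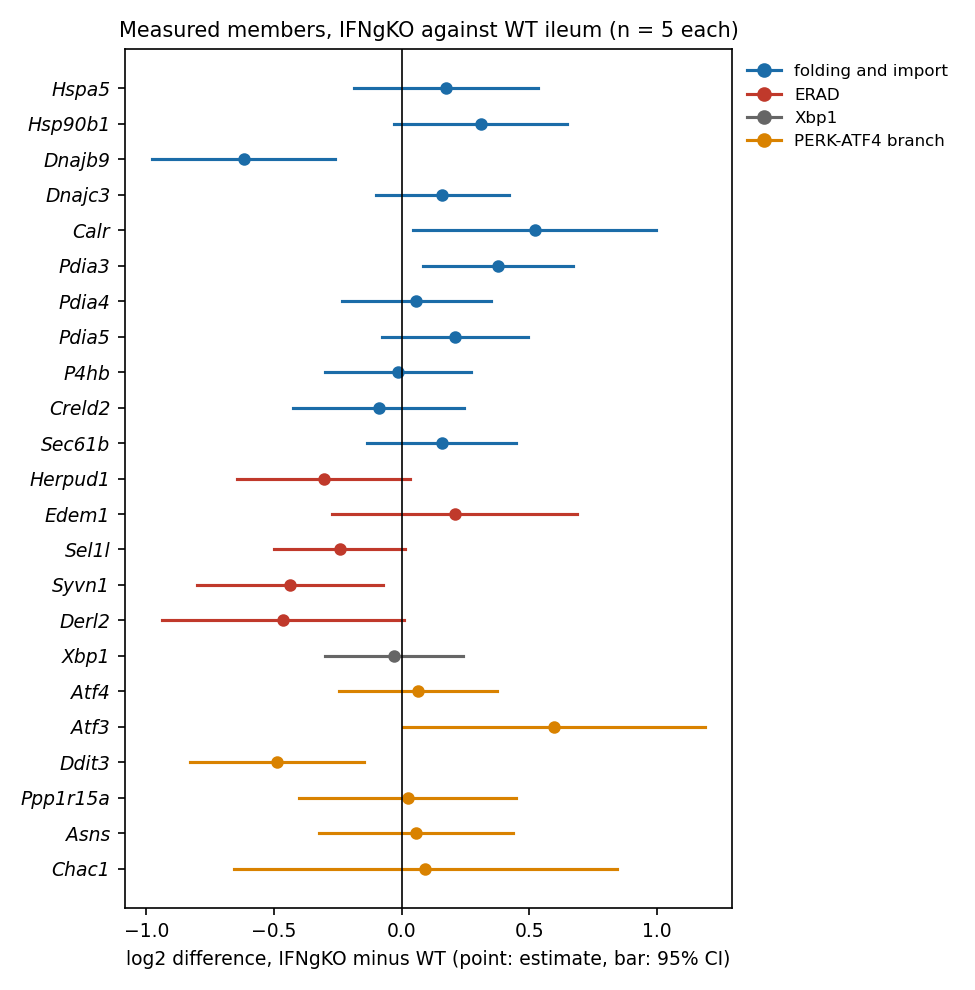
Log2 difference between IFNgKO and WT ileum for the 23 measured genes (points, with 95% intervals from limma; n = 5 each), coloured by role. Most folding genes lie at or right of 0, 4 of the 5 ERAD genes lie left of it, and the intervals of Calr, Pdia3, Atf3, Dnajb9, Syvn1 and Ddit3 leave out 0 before adjustment.

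The folding and import genes divided unevenly. Of 17, 11 were measured, and 8 of these were higher in IFNgKO ilea and 3 lower, with a median difference of 0.16 log2 units (0.19 in set 1 and 0.09 in set 2). Of the 11, 7 were higher in both array sets, against 30.8% of all probes. None passed 5%.

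Pdia3 encodes ERp57, the disulfide isomerase that works with the lectin chaperones and in the class I peptide-loading complex. Its log2 level was 12.88, 12.88, 12.60, 12.76 and 12.85 in the IFNgKO samples, against 12.67, 12.20, 12.17, 12.55 and 12.48 in the WT samples. Only the highest WT sample, Ileum_WT_640, reached into the IFNgKO range, and within each array set every IFNgKO sample lay above every WT sample. The means were 12.79 ± 0.12 and 12.42 ± 0.22 (SD, n = 5 each), a difference of 0.38 ± 0.14 (SE), or 1.30-fold, with a 95% interval of 0.08 to 0.67 and an adjusted p of 0.327 (limma). It was 0.44 in set 1 and 0.33 in set 2.

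Calr encodes calreticulin, the calcium-binding lectin chaperone that is ERp57's partner. It had log2 levels of 9.18, 9.59, 9.07, 8.50 and 8.53 in IFNgKO ilea and 8.59, 7.89, 8.60, 8.75 and 8.44 in WT ilea. The IFNgKO samples of set 1 were both above their WT counterparts, whereas those of set 2 were mixed with theirs. The difference was 0.52 ± 0.22 (SE; interval 0.04 to 1.00; adjusted p = 0.377, limma), or 1.43-fold, but 1.14 in set 1 and 0.11 in set 2. Without Ileum_WT_641, the array of lowest weight, it was 0.32. The test of the difference between the sets, the interaction of genotype with array set, had an unadjusted interaction p of 0.0143 and an adjusted p of 0.999 in the limma fit.

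Hsp90b1 encodes the ER's HSP90, GRP94, and is given sample by sample because its genotypes separated within each array set, which was seen in its values. Its log2 level was 10.23 and 10.14 in the IFNgKO samples of set 1, against 10.06 and 10.08 in the WT samples. In set 2 it was 11.55, 11.65 and 12.15 in IFNgKO ilea, against 11.51, 11.03 and 11.50 in WT ilea. The gap between the array sets was larger than the genotype difference. The genotype difference was 0.31 ± 0.16 (SE; interval -0.03 to 0.65; adjusted p = 0.438, limma), and it was 0.19 without Ileum_IFNgKO_649 and 0.21 without Ileum_WT_643. Hsp90b1 and Pdia3 were the 2 members in which IFNgKO lay above WT within each array set, against 2.14% of all probes.

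Hspa5 encodes BiP, the HSP70 of the ER and the chaperone that holds the sensors inactive. Its probe was dim, detected in 4 of 5 IFNgKO and 3 of 5 WT samples, with log2 levels of 5.44, 5.79, 6.04, 6.40 and 5.93 in IFNgKO ilea and 5.54, 5.09, 6.40, 5.75 and 5.97 in WT ilea. The genotypes overlapped, and the difference was 0.17 ± 0.17 (SE), with an interval of -0.19 to 0.53.

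Dnajb9 ran the other way from most folding genes. It encodes ERdj4, a BiP co-chaperone that hands misfolded proteins on for degradation and is among the best known targets of spliced XBP1. Its log2 level was 6.01, 6.71, 7.86, 7.81 and 7.57 in IFNgKO ilea, against 6.72, 6.71, 8.27, 8.65 and 8.71 in WT ilea. In set 2 all 3 IFNgKO samples were below all 3 WT samples, and in set 1 one IFNgKO sample was low and the other level with WT. The means were 7.19 ± 0.80 and 7.81 ± 1.01 (SD, n = 5 each), with a difference of -0.62 ± 0.17 (SE), or 0.651-fold, and an interval of -0.98 to -0.26. This was the lowest p of the members, at 0.00244 unadjusted, rank 120 of 12039 probes, and 0.242 after adjustment (limma). The difference was -0.35 in set 1 and -0.80 in set 2.

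P4hb, which encodes protein disulfide isomerase itself, showed no such gap. It had log2 levels of 14.62, 14.24, 14.26, 14.63 and 14.31 in IFNgKO ilea and 14.53, 14.33, 14.54, 14.36 and 14.38 in WT ilea, a difference of -0.01 ± 0.13 (SE; interval -0.30 to 0.27). The other measured folding genes lay between: Pdia5 at 0.21 ± 0.13 and Pdia4 at 0.06 ± 0.14, both disulfide isomerases, Dnajc3 (a BiP co-chaperone) at 0.16 ± 0.12, Sec61b (a subunit of the import channel) at 0.16 ± 0.14 and Creld2 (a secreted ER stress protein) at -0.09 ± 0.16 (SE). Their adjusted p-values were 0.543 to 0.886 (limma). Canx and Manf were detected on no array, Pdia6 on 1 WT array and Hyou1 on 2 IFNgKO arrays, and Dnajb11 and Sdf2l1 were not analysed here.

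**Figure D2:**
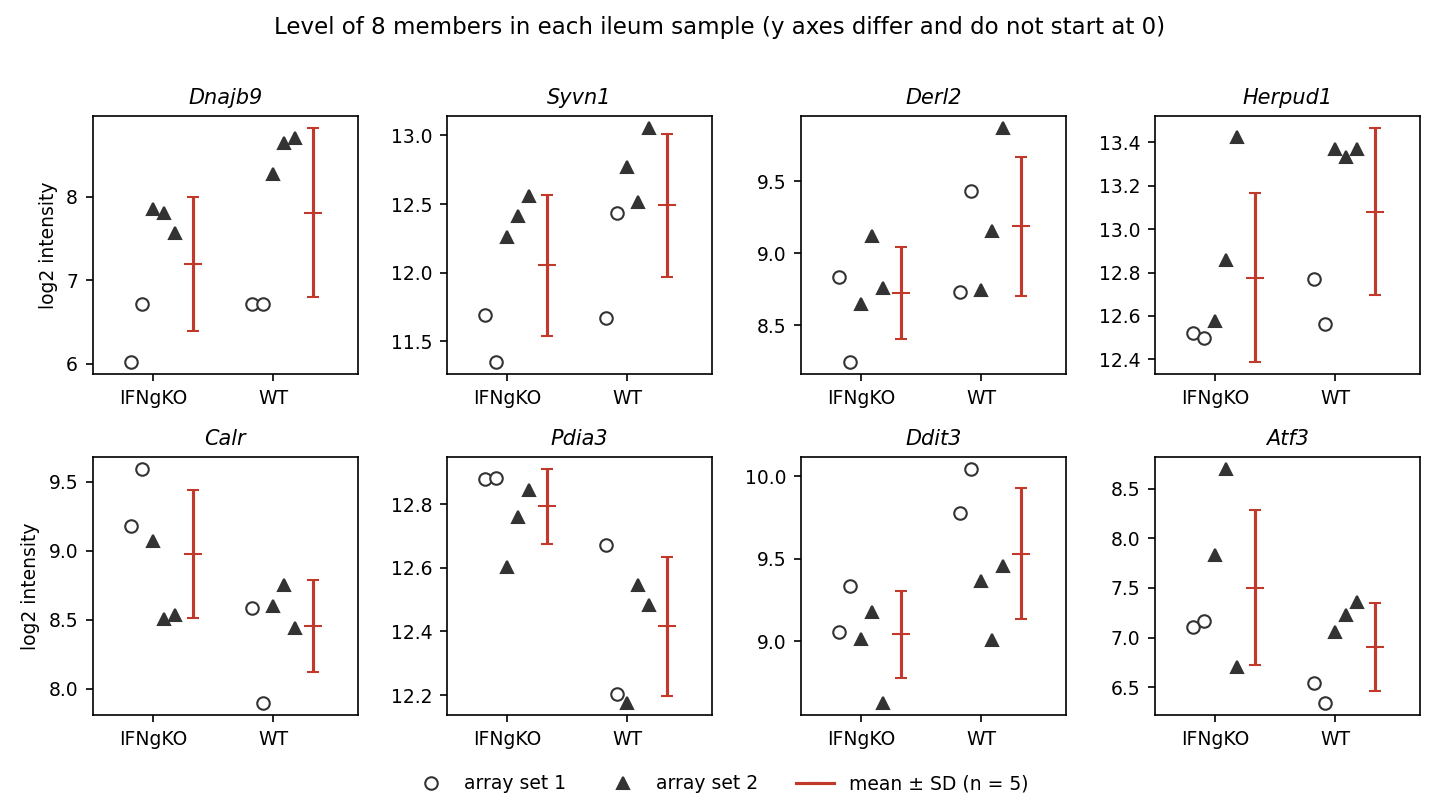
Log2 intensity of 8 genes in each IFNgKO (left) and WT (right) sample, with circles for set 1 and triangles for set 2, and the group mean with SD in red. Genotypes overlap in all 8 panels, and in Dnajb9 every sample of set 2 lies above every sample of set 1.

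The ERAD genes were mostly lower in IFNgKO ilea. Of 6, 5 were measured, and 4 of these (Herpud1, Sel1l, Syvn1 and Derl2) were lower in both array sets, against 31.5% of all probes, while Edem1 was higher. The median difference was -0.30 log2 units (-0.26 in set 1 and -0.37 in set 2). None passed 5%. Taking each sample's median over the 5 genes, with every gene centred on its mean over all samples, the IFNgKO samples were at -0.37 and -0.43 in set 1, against -0.16 and -0.15 in WT. In set 2 they were at -0.01, 0.14 and -0.17 in IFNgKO ilea, against 0.24, 0.25 and 0.44 in WT ilea. Within each array set every IFNgKO sample was thus below every WT sample, although the sets together overlapped. Among the 5 genes, Sel1l alone had this order in both sets. The same medians of the folding genes and of the PERK-ATF4 genes were above WT in both IFNgKO samples of set 1. In set 2 they were mixed, for folding at 0.109, 0.154 and 0.068 in IFNgKO ilea against 0.001, -0.059 and 0.134 in WT ilea. How often a median over 5 other genes keeps the genotypes apart within each array set was not computed.

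Syvn1 encodes HRD1, the ubiquitin ligase at the centre of the retrotranslocation complex. It had log2 levels of 11.70, 11.35, 12.26, 12.41 and 12.56 in IFNgKO ilea, against 11.67, 12.44, 12.77, 12.52 and 13.05 in WT ilea. Ileum_IFNgKO_649 lay just above Ileum_WT_643 in set 2 and Ileum_IFNgKO_645 just above Ileum_WT_640 in set 1, so the genotypes overlapped within both sets. The means were 12.05 ± 0.51 and 12.49 ± 0.52 (SD, n = 5 each), with a difference of -0.44 ± 0.17 (SE), or 0.739-fold (interval -0.80 to -0.07; adjusted p = 0.352, limma). Without Ileum_WT_641, the array of lowest weight, the difference was -0.30.

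Sel1l encodes the adaptor that holds HRD1 in its complex. It had log2 levels of 8.84, 8.82, 9.33, 9.39 and 9.03 in IFNgKO ilea and 9.12, 9.05, 9.45, 9.44 and 9.57 in WT ilea. It was the 1 member in which IFNgKO lay below WT within each array set, against 2.21% of all probes. The difference was -0.24 ± 0.12 (SE; adjusted p = 0.427, limma), and a second, dimmer probe gave -0.04.

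Derl2 encodes a derlin, a membrane protein of the same complex. Levels were 8.84, 8.24, 8.65, 9.12 and 8.76 in IFNgKO ilea, against 8.73, 9.43, 8.74, 9.16 and 9.87 in WT ilea. The distance between the groups came largely from Ileum_WT_641 and Ileum_WT_644, the highest samples. The difference was -0.47 ± 0.22 (SE; interval -0.94 to 0.01; adjusted p = 0.414, limma), and its second probe gave -0.52 ± 0.17 (adjusted p = 0.296). Without Ileum_WT_644 the first probe gave -0.31.

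Herpud1 encodes HERP, a stress-induced membrane protein that recruits substrates to HRD1. It had log2 levels of 12.52, 12.50, 12.57, 12.86 and 13.42 in IFNgKO ilea and 12.77, 12.56, 13.37, 13.33 and 13.37 in WT ilea. Ileum_IFNgKO_649 was the highest of all 10, and the other IFNgKO samples were below WT in their own array set. The difference was -0.30 ± 0.16 (SE; interval -0.64 to 0.03; adjusted p = 0.449, limma), and it was -0.42 without Ileum_IFNgKO_649 and -0.19 without Ileum_IFNgKO_647. Edem1, which encodes a mannosidase-like protein that marks glycoproteins for removal, was at 0.21 ± 0.22 (SE), with 0.68 in set 1 and -0.11 in set 2. Derl1 had 3 probes and was detected on no array.

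The sensors were barely readable. Atf6 was not analysed here, and Ern1 was detected on no array. Xbp1, the measured member of this group, had log2 levels of 13.09, 13.19, 12.70, 12.91 and 12.96 in IFNgKO ilea and 13.04, 12.89, 12.95, 13.05 and 13.07 in WT ilea. The groups overlapped, and the difference was -0.03 ± 0.12 (SE; interval -0.30 to 0.24; adjusted p = 0.941, limma). The files do not say whether this probe tells the spliced form from the unspliced one.

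In the PERK-ATF4 branch, 6 of 7 genes were measured, 5 higher and 1 lower in IFNgKO ilea, with a median difference of 0.06 log2 units (0.08 in set 1 and 0.05 in set 2). None passed 5%. Atf4, the transcription factor of the branch, had log2 levels of 9.24, 9.29, 9.97, 9.90 and 9.82 in IFNgKO ilea and 9.46, 8.82, 9.75, 10.09 and 9.79 in WT ilea, a difference of 0.06 ± 0.14 (SE; interval -0.24 to 0.37). The genotypes were interleaved in set 2 and the array sets stood apart.

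Ddit3 encodes CHOP, the factor downstream of ATF4 that is linked to cell death. Log2 levels were 9.06, 9.33, 9.02, 9.18 and 8.62 in IFNgKO ilea, against 9.78, 10.04, 9.36, 9.01 and 9.46 in WT ilea. Ileum_WT_643 lay among the IFNgKO samples, and the other 4 WT samples lay above all of them. The means were 9.04 ± 0.26 and 9.53 ± 0.40 (SD, n = 5 each), with a difference of -0.49 ± 0.16 (SE), or 0.713-fold (interval -0.83 to -0.15; adjusted p = 0.286, limma). It was -0.72 in set 1 and -0.34 in set 2, and a second probe gave -0.51 ± 0.19. That second probe was dimmer, detected on 3 IFNgKO and 4 WT arrays.

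Atf3, a stress-induced repressor and an ATF4 target, ran against Ddit3. It had log2 levels of 7.11, 7.17, 7.83, 8.70 and 6.70 in IFNgKO ilea and 6.55, 6.34, 7.06, 7.23 and 7.36 in WT ilea. Ileum_IFNgKO_648 was far the highest, and Ileum_IFNgKO_649 was below every WT sample of its array set. The difference was 0.60 ± 0.27 (SE), or 1.51-fold (interval 0.01 to 1.19; adjusted p = 0.406, limma). It was 0.35 without Ileum_IFNgKO_648 and 0.89 without Ileum_IFNgKO_649. Atf3 also belongs to the genes that respond within minutes to handling. Fos, the best known of these, was highest in Ileum_IFNgKO_648, at 11.47 against 7.49 to 10.40 in WT ilea. No other handling gene measured was highest of all 10 in Ileum_IFNgKO_648, and Jun and Junb were highest in WT samples. Among the IFNgKO samples alone, Jun, Zfp36 and Klf6 were highest in Ileum_IFNgKO_648. Jun, Junb, Ier3 and Zfp36 were lowest of all 10 samples in Ileum_IFNgKO_649, whereas Dusp1 was highest there. Of the handling genes measured, 4 were higher and 4 lower in IFNgKO ilea. Of 12 such genes listed 8 were measured. Their summed level on the log2 scale was 14.09 to 14.59 in IFNgKO ilea and 14.18 to 14.35 in WT ilea. The highest sum, 14.59, was that of Ileum_IFNgKO_648. Klf6 and Zfp36, the brightest of the 8 genes, weigh most in this sum. The part of the handling genes in the Atf3 values was not tested.

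Chac1, which encodes a glutathione-degrading enzyme and ATF4 target, went opposite ways in the array sets. Its log2 level was 7.34 and 8.51 in IFNgKO ilea of set 1, against 6.84 and 6.78 in WT ilea. In set 2 it was 7.82, 7.55 and 6.55 in IFNgKO ilea, against 8.29, 7.82 and 7.56 in WT ilea. The difference was 1.11 in set 1 and -0.58 in set 2, with an interaction p of 0.00961 and an adjusted p of 0.999 (limma). Calr and Chac1 were the 2 members with an interaction p under 0.05, against 3.17% of all probes. Ppp1r15a (GADD34, which restores translation) was at 0.02 ± 0.20 and Asns (asparagine synthetase) at 0.05 ± 0.18 (SE). Trib3, a pseudokinase that restrains ATF4, was detected on 2 IFNgKO and 2 WT arrays and was not tested.

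**Figure D3:**
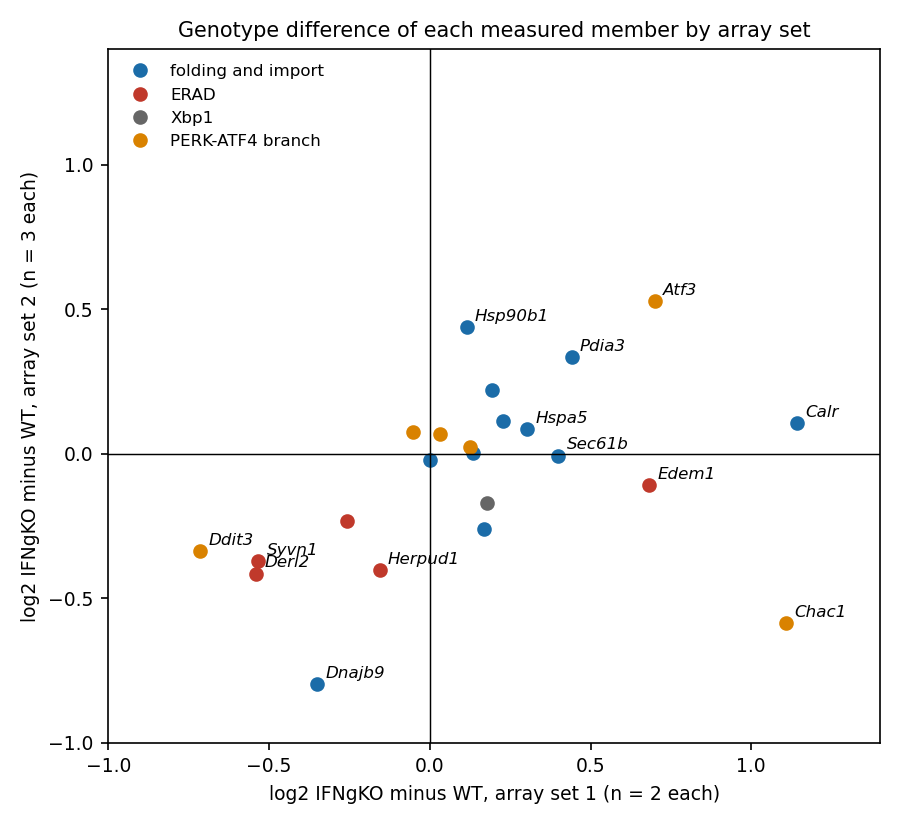
Genotype difference of each measured gene in set 1 (x axis) and in set 2 (y axis), log2 IFNgKO minus WT. Derl2, Syvn1, Ddit3 and Dnajb9 lie in the lower left, Pdia3 and Atf3 in the upper right, and Chac1 at 1.11 and -0.58 in the lower right.

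Repeat probes bear on how far a single probe can be read. Of the members, 8 had more than 1 tested probe, and the probes of 7 gave the same sign for the genotype difference. Among these were Ddit3, Derl2, Herpud1, Pdia5 (0.21 and 0.38), Sec61b (0.16 and 0.27) and Sel1l (-0.24 and -0.04). The exception was Asns, at 0.05 and -0.03. How often the probes of other genes share a sign was not computed.

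More of the ER genes passed the test between the array sets than between the genotypes. With genotype fitted, 8 of the 23 genes were higher in set 2 past 5% and none was lower, against 13.0% of all probes higher and 6.28% lower (limma). Those 8 were Dnajb9, Hsp90b1, Asns, Syvn1, Atf4, Hspa5, Herpud1 and Sel1l. Dnajb9 averaged 8.14 ± 0.47 in set 2 (n = 6) and 6.54 ± 0.35 in set 1 (n = 4), a difference of 1.60 ± 0.17 (SE; adjusted p = 2.215e-05, limma). Hsp90b1 averaged 11.56 ± 0.36 in set 2 and 10.13 ± 0.08 in set 1, a difference of 1.44 ± 0.16 (adjusted p = 3.271e-05, limma), and Asns differed by 1.43 ± 0.18. The differences of the others were 0.41 for Sel1l to 0.81 for Syvn1. In both Dnajb9 and Hsp90b1 the gap between the sets was thus more than the genotype difference, of -0.62 and 0.31. The median over the 23 genes was 0.23 log2 units, beside -0.12 over all tested probes.

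The size of that gap depended on the probe. The 2 probes of Herpud1 gave 0.57 ± 0.16 and 1.52 ± 0.15 (SE). The 2 probes of Ddit3 went opposite ways between the sets, at -0.45 ± 0.16 and 1.42 ± 0.19, although both gave lower Ddit3 in IFNgKO ilea. What array set stands for is not given in the labels, and the arrays and the animals on them cannot be told apart.

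**Figure D4:**
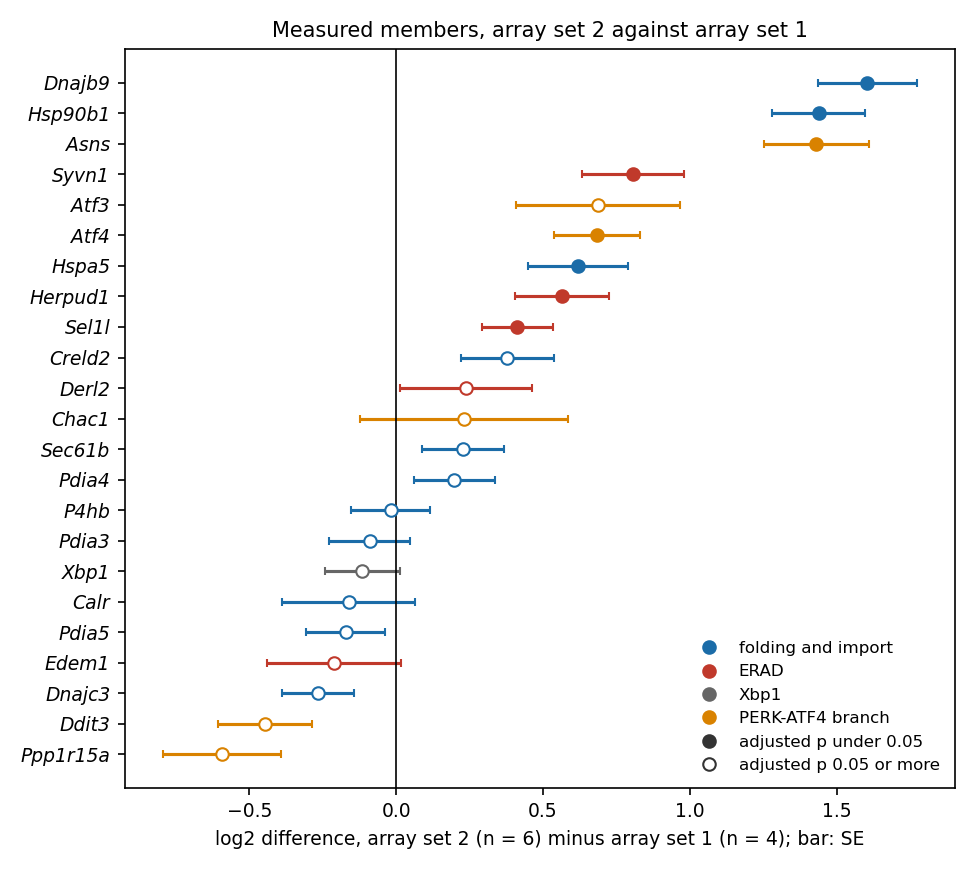
Log2 difference between set 2 (n = 6) and set 1 (n = 4) for the 23 measured genes, with SE and with genotype fitted. Filled points passed an adjusted p of 5%, all 8 of them right of 0, with Dnajb9, Hsp90b1 and Asns at 1.43 to 1.60.

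Further genes of the same pathways were read from lists given by role. Of 123 such genes 92 were measured, 45 higher and 47 lower in IFNgKO ilea, with a median difference of -0.0013 log2 units, and none passed 5% (limma). Of 18 other folding genes 13 were higher and 5 lower (median 0.11). The lowest p among them belonged to Fkbp2 and Fkbp11, ER prolyl isomerases, at 0.36 ± 0.14 and 0.55 ± 0.22 (SE), and to Uggt1, the sensor of misfolded glycoproteins, at 0.29 ± 0.14. Of 19 import and glycosylation genes 13 were higher and 6 lower (median 0.02), with Srp72 of the signal recognition particle at -0.41 ± 0.17, Spcs1 of the signal peptidase at 0.27 ± 0.14 and Stt3a of the oligosaccharyltransferase at -0.24 ± 0.15.

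Of 16 other ERAD genes 6 were higher and 10 lower (median -0.06). Rnf139, an ER-resident ubiquitin ligase, had log2 levels of 5.52, 5.69, 5.60, 5.44 and 5.46 in IFNgKO ilea, against 6.31, 5.89, 5.82, 5.95 and 6.13 in WT ilea. All IFNgKO samples lay below all WT samples, against 0.631% of all probes, but the probe was dim. Its adjusted p was 0.242 (difference -0.48 ± 0.13, limma). Of the 92 further genes measured, Rnf139 alone lay wholly below WT. Aldh18a1 of the ATF4 targets alone lay wholly above, by 0.28 ± 0.12, against 0.706% of all probes. Rnf5, another ER ubiquitin ligase, was at -0.26 ± 0.15, and Fam8a1, a cofactor of HRD1, at -0.17 ± 0.12.

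Of 13 other sensors and regulators 4 were higher and 9 lower (median -0.12). Ppp1r15b, the constant partner of the phosphatase that restores translation, was at -0.35 ± 0.15, the membrane-bound factor Creb3l3 at -0.58 ± 0.30 (0.13 in set 1 but -1.05 in set 2) and the eIF2 alpha kinase Eif2ak1 at -0.27 ± 0.16. Ern2, which encodes IRE1 beta, the form of the sensor found in gut epithelium, was at 12.06 ± 0.20 in IFNgKO ilea and 12.18 ± 0.24 in WT ilea (SD, n = 5 each). It was picked out after its values were seen. Of 26 other ATF4 targets 9 were higher and 17 lower (median -0.09), with Cth of cysteine synthesis at 0.62 ± 0.21 (0.03 in set 1, 1.02 in set 2, and detected on 3 IFNgKO and 2 WT arrays), the amino acid transporter subunit Slc3a2 at -0.42 ± 0.16 and the factor Cebpg at -0.45 ± 0.18.

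**Figure D5:**
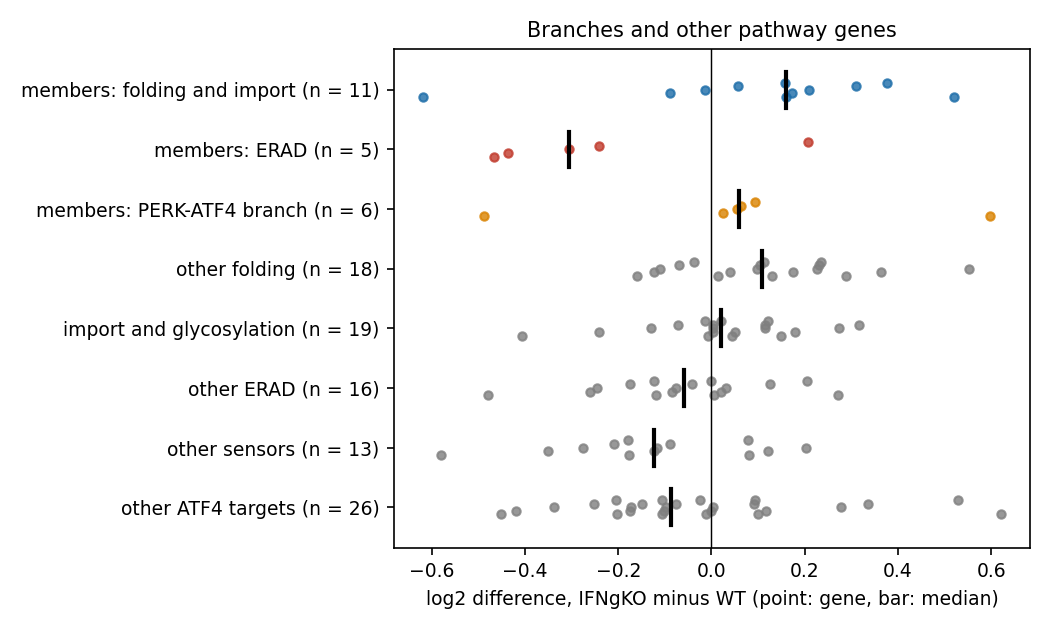
Log2 difference between IFNgKO and WT ileum for each measured gene of 3 member groups and of 5 further lists (points), with the median of each (black bar). The median is 0.16 for the folding members and -0.30 for the ERAD members, and the 5 further lists have medians of -0.12 to 0.11.

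Markers of the cells that carry much of the gut's ER were compared beside these groups, as summed levels on the log2 scale. The goblet list (6 of 10 measured) was at 16.36 to 16.61 in IFNgKO ilea and 16.32 to 16.48 in WT ilea. The Paneth list (7 of 16) was at 17.39 to 17.51 and 17.36 to 17.61, and the enterocyte list (8 of 12) at 16.95 to 17.20 and 16.84 to 17.22, for IFNgKO and WT. Each sum adds linear intensities and so follows the brightest genes of its list, such as Zg16, Lyz1 and Sis. A shift in dimmer genes would hardly show in it. These summed levels overlapped between genotypes, but single genes of the lists did not all do so. Spink4 and Ccl9 of the goblet list were higher in every IFNgKO sample than in any WT sample, against 0.706% of all probes. Their differences were 0.39 ± 0.13 and 0.67 ± 0.17 (SE). The other goblet genes measured were at 0.16 (Spdef), 0.11 (Tff3), -0.01 (Clca1) and -0.07 (Zg16). Apoa4 of the enterocyte list was at -1.21 ± 0.47. Spink4, Ccl9 and Apoa4 did not pass 5% (adjusted p of 0.239 to 0.355, limma), and their part in the ER gene values was not tested.

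The summed levels of the immune and stromal lists averaged higher in IFNgKO ilea, by 0.13 to 0.60 log2 units, with ranges that overlapped WT. The plasma and B cell list (4 of 11, with Jchain and Prdm1 detected on no array) was at 8.98 to 10.18 in IFNgKO ilea and 8.85 to 9.69 in WT ilea. The T cell list (4 of 8, with Cd8a and Cd4 detected on no array) was at 8.27 to 9.23 and 8.13 to 8.40, and Cd3d, Cd3e and Cd3g were higher at an unadjusted p under 0.05. Its other gene, Cd8b1, was detected on 4 IFNgKO arrays and 1 WT array, and so was measured through the group in which it is high. The macrophage list (5 of 9, Adgre1 on 1 array) was at 11.12 to 11.77 and 10.67 to 11.49, and the fibroblast list (6 of 6) at 12.41 to 12.84 and 11.83 to 12.90. C1qb and Mrc1 of the macrophage list were also higher at an unadjusted p under 0.05 (limma), against 5.86% of all probes. So were Pou2af1 and Cd79b of the plasma and B cell list, while Sdc1 of that list was at -0.09. No gene of the immune lists passed 5%. Smooth muscle genes (8 of 8) were at 16.11 to 16.33 and 15.76 to 16.27, and their median difference went opposite ways, -0.20 for set 1 and 0.37 for set 2. The part of these cells in the values of Calr, Pdia3, Fkbp11 or any other ER gene was not tested.

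The exocrine pancreas list (6 of 17) was at 12.45 to 13.09 in IFNgKO ilea and 11.89 to 13.40 in WT ilea, with Cpa1, Cpb1, Prss2 and Cela2a detected on no array. Clps, its brightest gene, makes up most of this sum. Of the 6 genes measured, 2 were higher and 4 lower in IFNgKO ilea, with Ctrl at -0.45 ± 0.15 (SE), and none passed 5%. The 1 blood gene measured of 4, the haemoglobin gene Hba-a1, was at 10.57 to 11.78 in IFNgKO ilea and 10.53 to 13.28 in WT ilea. Chaperones outside the ER, in the cytosol and, for Hspd1 and Hspe1, in mitochondria, were at 13.78 to 14.87 and 13.79 to 14.78 (7 of 11). Among them Hspa1a was at -1.38 ± 0.41 (SE) and Hsph1 at -0.80 ± 0.27, neither past 5% (limma).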

How the data were processed

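Total RNA of 10 ileum samples was amplified and hybridised to Illumina arrays, per the labels' protocols. The deposited non-normalised table holds, per the file headers and from its values, 1 linear intensity for each probe on each array, with background left in, and the p-value of its detection. The authors' deposited value table holds intensities that are, from the values, quantile normalised and not background-subtracted. lumi is named in the submitters' processing notes, with no version or role.

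Background was modelled with normexp, whose control mean came from detection p-values. After an offset of 16, quantile normalisation followed, and log2 was taken (neqc, limma 3.58.1, R 4.3.3). Of 25697 probes, 12039 were detected (p under 0.05) on 5 or more arrays and were tested with lmFit and eBayes, genotype and array set additive, adjusted by Benjamini-Hochberg. On the array 23978 probes have 1 gene symbol (updated through RefSeq, GRCm38.p6), none several, and 1719 are unnamed here. A gene is read by its brightest tested probe. The number of arrays limits the precision, and probes of different genes are not compared in level. The comparison of array sets was added after the data were seen. The fit with lmFit and eBayes was tested on simulated log2 values, and the search for the ER stress response element on made-up letters. Background correction, normalisation and the probe filter were not tested in this way.

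Values in every sample are given, by rule, for members with an unadjusted p under 0.05, the brightest member of each role, and Xbp1, Atf4 and Ddit3. Hspa5, Hsp90b1, Sel1l, Derl2 and Chac1 were added after their values were seen. For each further list the 3 genes with the lowest p are named, and Ern2 and Aldh18a1 were added after their values were seen. Single marker genes such as Spink4, Ccl9, Apoa4 and Hsph1, and the sample values of Rnf139, are given outside these rules, with their values known. Members and lists were chosen with earlier results of these data known. Alternatives changed the background correction, normalisation, values used, dim-probe filter, handling of array set, variance model, array weights and probe summary, and left out each sample.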

Additional observations from a re-analysis of the deposited data

Results flagged for a closer look

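Ppp1r15a, which encodes GADD34, stood apart in sample Ileum_WT_641. Its log2 level there was 8.624, against 7.46, 7.49, 7.66 and 7.77 in the other WT samples, and the gap to the nearest of them was 0.737 of the group's range, above Dixon's value of 0.71 for 5 samples. This was 1 of 46 groups of 5 looked at, and chance alone sets apart about 1 group in 20. The same array had the fewest probes detected, and its part in this value was not tested.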

How the results depend on the processing

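No member passed 5% under any of the 22 alternatives tried, and 14 of the 23 measured genes kept the sign of their difference in all of them. Over all probes, 2 passed 5%, against 10 with median scaling, 5 in the authors' value table, 1 with detection required on all 10 arrays, 1 without the array set term, 0 in array set 1 alone, 0 in array set 2 alone, 4 with trend and robust variance, and 1 to 3 with a sample left out. Median scaling put the median of all probes at 0.19, against 0.0044, and the median of the measured members at 0.26, of the folding members at 0.36 and of the ERAD members at -0.15. With a sample left out, these medians were 0.02 to 0.11, 0.11 to 0.20 and -0.42 to -0.27, the ERAD extreme of -0.42 being without Ileum_IFNgKO_649, and that of the PERK-ATF4 members was -0.02 to 0.13. Signs turned under median scaling for P4hb (0.076), Creld2 (0.12) and Xbp1 (0.13), in array set 1 alone for P4hb (0.0014), Creld2 (0.17), Xbp1 (0.18) and Ppp1r15a (-0.052), in array set 2 alone for Sec61b (-0.0059), Edem1 (-0.11) and Chac1 (-0.58), and with array weights for Atf4 (-0.0054). With a sample left out, the differences ran from -0.056 to 0.17 for Asns, -0.043 to 0.15 for Atf4, -0.24 to 0.39 for Chac1, -0.17 to 0.047 for Creld2, -0.075 to 0.044 for P4hb, -0.096 to 0.17 for Ppp1r15a and -0.085 to 0.031 for Xbp1. The cause of these shifts was not tested. The comparison of array sets, whose alternatives were chosen after seeing the data, had 6 to 10 members past 5%. No paired analysis was possible because the groups share no sample numbers. Dim probes such as that of Hspa5 limit what can be read.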
